A study of Mus musculus with 12 samples.

Results

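The heat shock proteins of the cytosol were followed through osteoblastic differentiation of MC3T3-E1 cells, a preosteoblast line derived from mouse calvaria whose cultures lay down and mineralize collagen. The group was set as 10 genes, and it was read from the rows of the value table whose probe annotation names one of them. Of these, 7 genes were measured, out of 12817 genes named on the array: Hspa1a, Hspa1b, Hspa8, Hspa4, Hsph1, Hsp90aa1 and Dnajb1. Hsp90ab1, Hspb1 and Hsf1 were not analysed here. Hspa1a was printed 17 times and its spots were averaged, and the other 6 genes had 1 spot each. RNA was taken on Day 2 (log phase growth), Day 5 (growth arrest), Day 10 (differentiating osteoblast) and Day 28 (mature osteoblast), with 3 arrays per day and 12 in all. The cells of every day carried the same treatment, a glycerol phosphate and ascorbic acid, so no untreated cells were compared. Each array set cell RNA in Cy3 against a commercial mouse reference RNA in Cy5.

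Values are log2 ratios of cells to reference, centred on the median of each array. The direction of the ratio is likely and not stated: of 16 measured osteoblast and mesenchymal markers 12 had a mean above 0 over the 12 arrays (mean of all 1.58), and of 20 measured markers of other lineages 9 did (mean -0.69). The mean of those 20 was drawn down by a few genes, with Krt18 (-5.71), Ptprc (-3.95) and Epcam (-3.22) lowest, and their count above 0 is near an even split. If the ratio ran the other way, every direction below would turn. The bone genes Col1a2, with a mean log2 ratio of 3.03 over the 12 arrays, Col1a1 (2.48), Sp7 (2.58) and Ibsp (2.10) stood above the reference. Thy1 (-1.83), Phex (-0.60), Lox (-0.48) and Vim (-0.075) of the same marker list stood below it. Arrays correlated with the others of their day at a mean r of 0.795 to 0.919, with Day 10 replicate 3 lowest and Day 5 replicate 2 next at 0.838. Separate cultures are not named for the 3 replicates of a day, and the spread behind each p-value may therefore be technical.

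Heat shock proteins are chaperones. The HSP70 proteins bind unfolded stretches of other proteins and release them in a cycle driven by ATP, J proteins such as DNAJB1 deliver the clients and start the cycle, and HSP110 proteins such as HSPA4 and HSPH1 exchange the nucleotide. HSP90 then finishes the folding of kinases and steroid receptors. Hspa8 is made at all times, whereas Hspa1a and Hspa1b are known as the heat-inducible copies, switched on by the transcription factor HSF1 at heat shock elements in their promoters. In bone, cells that secrete a collagen matrix carry a heavy folding load, although most of it falls on the chaperones of the endoplasmic reticulum.

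Hspa1a and Hspa1b lie next to each other on mouse chromosome 17, with no other gene listed between them. The sequences before their starts are shown because the values of these neighbouring genes are compared below. The part of this DNA in those values was not tested. Both sequences are from RefSeq, build GRCm38.p6, minus strand, at chr17:34972157-34972406 for Hspa1a and chr17:34959239-34959488 for Hspa1b. Capitals mark a match to the heat shock element units GAANNTTC and a CCAAT box, which reads ATTGG on this strand.
Hspa1a: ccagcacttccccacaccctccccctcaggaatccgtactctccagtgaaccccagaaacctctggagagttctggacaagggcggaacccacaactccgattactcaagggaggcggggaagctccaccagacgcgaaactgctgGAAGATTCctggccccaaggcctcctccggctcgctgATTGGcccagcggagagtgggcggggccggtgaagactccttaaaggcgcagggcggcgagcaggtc
Hspa1b: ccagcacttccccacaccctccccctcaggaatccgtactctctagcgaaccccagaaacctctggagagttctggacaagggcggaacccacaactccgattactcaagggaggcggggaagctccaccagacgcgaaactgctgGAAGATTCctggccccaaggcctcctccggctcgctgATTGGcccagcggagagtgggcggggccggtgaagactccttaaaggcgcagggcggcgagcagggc

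The windows are identical at 98.8% of their 250 bases. They differ by C44T, T47C and T249G, with the base of Hspa1a first and positions counted from 1 at the 5′ end of the printed window, and none of the 3 lies in a capital stretch. A search of RefSeq windows of 300 bases (250 before the start and 50 after) on both strands found promoters for 6 of the 10 genes: Hspa1a, Hspa1b, Hspa4, Hsph1, Hspb1 and Dnajb1. The 2-unit element, GAANNTTC or TTCNNGAA, was found in the windows of Hspa1a, Hspa1b, Hsph1 and Hspb1 and in 15.1% of all 32851 windows. The 3-unit element, GAA, TTC and GAA (or TTC, GAA and TTC) set 2 bases apart, which contains the 2-unit one, was found in those of Hsph1 and in 0.603% of all. A CCAAT box in either orientation was found for Hspa1a, Hspa1b, Hsph1 and Dnajb1 and in 37.4% of all windows. TATAAA, on either strand, was found in no window of these genes and in 13.6% of all.

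**Figure D1:**
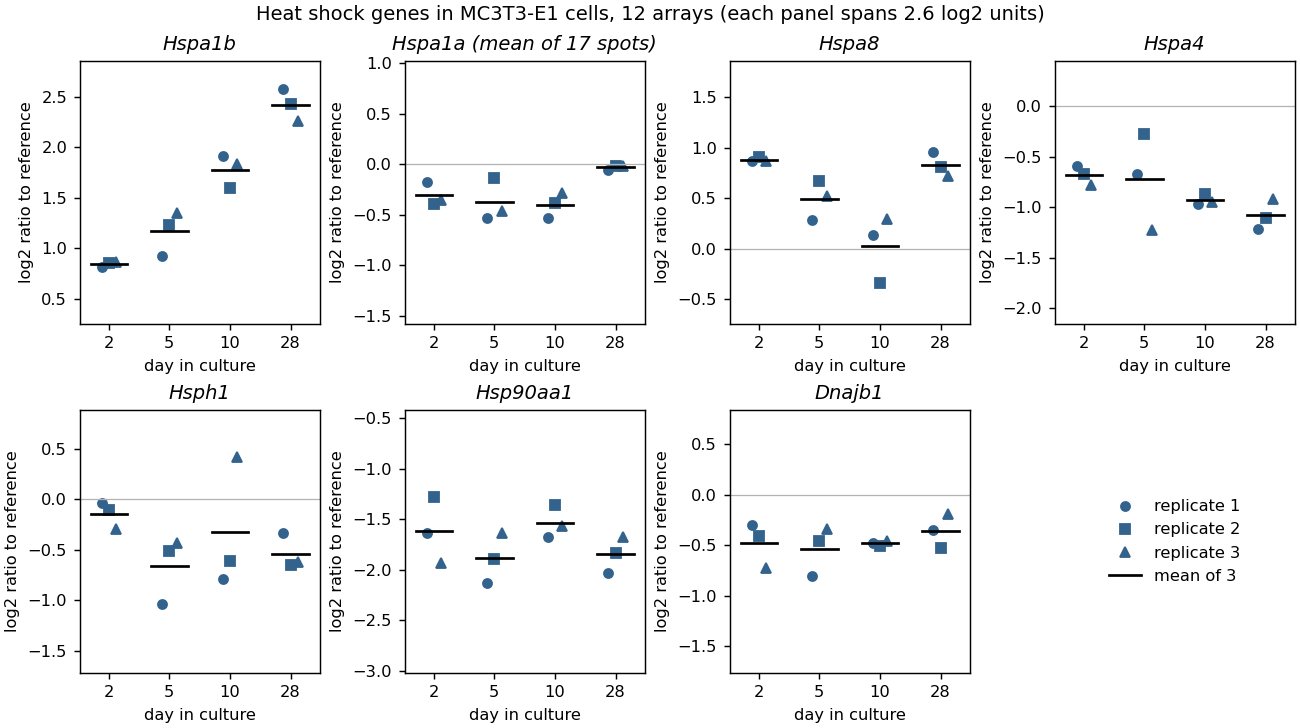
Log2 ratio to the reference (vertical axis) by day in culture (horizontal axis) for the 7 measured genes, with 1 point per array, a shape per replicate number and a bar at the mean of 3. Hspa1b climbs from 0.84 on Day 2 to 2.42 on Day 28, Hspa8 is lowest on Day 10 at 0.03, and no day of the other 5 genes differs from another past the threshold.

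Hspa1b was the member that changed most. Its log2 ratios were 0.82, 0.85 and 0.87 on Day 2, 0.92, 1.23 and 1.35 on Day 5, 1.91, 1.60 and 1.83 on Day 10, and 2.58, 2.43 and 2.26 on Day 28, for replicates 1 to 3. The days did not overlap (shares of all rows are given below), and their order in level was the order of the days. The means were 0.84 ± 0.03, 1.17 ± 0.22, 1.78 ± 0.16 and 2.42 ± 0.16 (SD, n = 3). The F test across days gave limma adjusted p = 1.11e-04, rank 52 of 17504 rows. From Day 2 to Day 28 Hspa1b rose 2.99-fold (log2 difference 1.58, SE 0.15, 95% interval 1.26 to 1.90, adjusted p = 2.42e-05). It had risen 1.91-fold by Day 10 (0.93, adjusted p = 0.00449), and it rose 2.39-fold from Day 5 to Day 28 (1.26, adjusted p = 2.71e-04). These 3 calls held in all 24 alternative treatments of the data, with a Day 28 minus Day 2 difference of 1.18 (quantile normalization) to 1.66. RNA from whole cultures cannot tell more RNA per cell from more cells of one kind.

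Neighbouring days in this order did not differ past the threshold. Day 5 minus Day 2 was 0.32 (adjusted p = 0.485), Day 10 minus Day 5 was 0.61 (adjusted p = 0.146), and Day 28 minus Day 10 was 0.64 (adjusted p = 0.0658). The last passed with array weights (0.65, adjusted p = 0.0233) and was 0.40 after quantile normalization (adjusted p = 0.446). The rows most like Hspa1b across the 12 arrays were Smoc2 (Pearson r = 0.988), Cst3 (0.974), which encodes the protease inhibitor cystatin C, and Rasl11b (0.969). Smoc2, a secreted calcium-binding matrix protein, had day means of -0.68, 0.11, 1.27 and 2.29. The arrays share the reference and the order of days, so these values describe a shared time course and carry no test.

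Markers of other cells were read beside this rise. Of 6 measured macrophage and osteoclast markers 1 was above 0 over the 12 arrays, Ctsk, which osteoblast cultures can also express. The mean of the 6 ran from -0.93 to -0.54 on the Day 2 arrays, -0.81 to -0.74 on Day 5, -0.85 to -0.68 on Day 10, and -0.31 to -0.15 on Day 28. The leukocyte gene Ptprc stood at -3.88 on Day 2 and -3.38 on Day 28 (difference 0.50, adjusted p = 0.614), while Ctsk rose by 2.63 (adjusted p = 0.00286). Of the other 4, Cd14 differed by 0.04, Adgre1 by -0.09, Acp5 by -0.19 and Itgam by -0.03, and the median of the 6 differences was 0.0056. The part of such cells in the rise of Hspa1b was not tested.

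Hspa1a, the other heat-inducible copy, did not pass in any comparison. Its arrays, each a mean of 17 spots, read -0.17, -0.39 and -0.35 on Day 2, -0.54, -0.14 and -0.46 on Day 5, -0.54, -0.39 and -0.28 on Day 10, and -0.06, -0.02 and -0.02 on Day 28. All 3 Day 28 arrays lay above all 9 earlier ones, and the 3 earlier days overlapped. Against Day 28, 28.6% of all rows did not overlap with Day 2, 25.3% with Day 5 and 18.2% with Day 10. The share of rows apart from all 9 arrays was not computed. The day means of Hspa1a were -0.31 ± 0.12, -0.38 ± 0.21, -0.40 ± 0.13 and -0.03 ± 0.02 (SD, n = 3), and the F test gave adjusted p = 0.309. Day 28 minus Day 2 was 0.27 (95% interval -0.02 to 0.57, adjusted p = 0.324), a fold of 1.21. Day 28 minus Day 10 was 0.37 (adjusted p = 0.331).

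**Figure D2:**
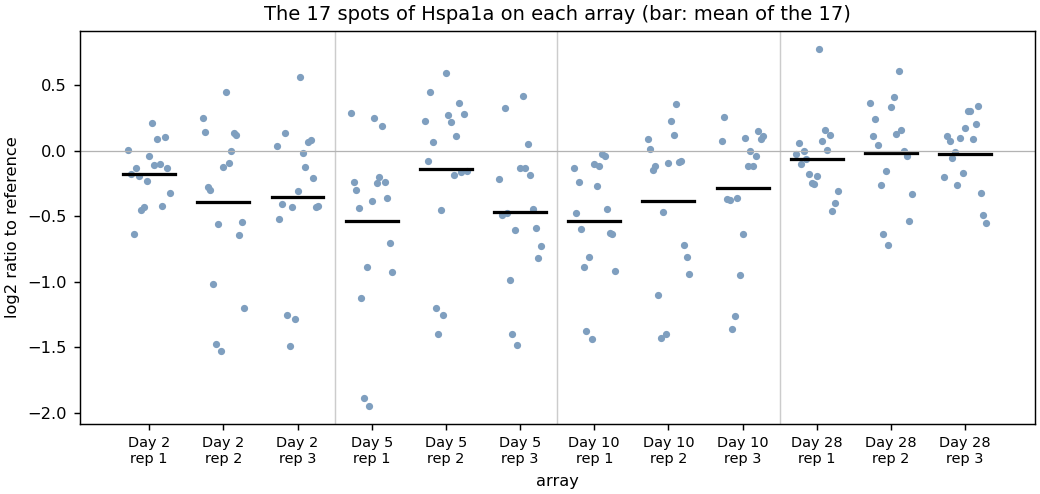
Log2 ratio to the reference of each of the 17 Hspa1a spots (points, in the same order on every array) on the 12 arrays, with bars at the array means. The Day 28 means lie between -0.06 and -0.02, above those of all other arrays, and the SD over the spots of 1 array runs from 0.22 to 0.65.

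The repeated spots of Hspa1a show how far a single spot can stray. Within 1 array the SD over the 17 spots ran from 0.22 (Day 2 replicate 1) to 0.65 (Day 5 replicate 1), and the standard error of the array mean from 0.05 to 0.16. Spots kept their place from array to array: their means over the 12 arrays ran from -1.10 to 0.31, and 58.8% of the variance lay between spots against 13.3% between arrays. From Day 2 to Day 28, 14 of 17 spots were higher, with differences of -0.11 to 0.78 and a median of 0.25. The Hspa1b spot differed by 1.58 over that interval. For Day 10 against Day 2 the counts were 5 of 17 higher, with differences of -0.39 to 0.19, against 0.93 for Hspa1b. Over 2 of the other 4 intervals the single Hspa1b spot lay within the range of the Hspa1a spots. For Day 28 against Day 10, 16 of 17 Hspa1a spots were higher, with differences of -0.02 to 1.01, against 0.64 for Hspa1b, and for Day 5 against Day 2 the range was -0.55 to 0.60, against 0.32.

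The change of Hspa1b was set against that of Hspa1a within each array, a comparison chosen with their values known. The gap between the 2 log2 ratios was 1.15 ± 0.14 on Day 2 and 1.55 ± 0.24 on Day 5 (SD, n = 3). It was 2.18 ± 0.24 on Day 10 and, with 3 arrays as before, 2.46 ± 0.18 on Day 28. An exact permutation test of any change over the 4 days gave p = 3.25e-04, with 15400 distinct regroupings of the arrays. Hspa1b was already known to change most of the members, so this p-value also carries its change. It is no separate support for a parting of the pair. The widening from Day 2 to Day 28 was 1.305, with exact permutation p = 0.10 (two-sided), the smallest that 3 against 3 arrays can give. Hspa1a and Hspa1b encode nearly the same protein, and the names rest on the array annotation. Probe sequences were not used here, so how far each probe also binds the RNA of the other copy is unknown. Hspa1l, the next gene beyond Hspa1a and named here for its place after its values were seen, ranged from -0.28 to 0.72 over the 12 arrays. Its 3 Day 28 arrays (-0.28, 0.09 and -0.15) overlapped with those of Day 5 and Day 10 and lay below all 3 of Day 2 (0.29, 0.14 and 0.13). Between Day 28 and Day 2, 28.6% of all rows did not overlap, and the difference of Hspa1l, -0.30, did not pass (limma adjusted p = 0.5275).

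Hspa8, the HSP70 made at all times, was lowest in mid-course. Its log2 ratios were 0.88, 0.91 and 0.87 on Day 2, 0.28, 0.67 and 0.53 on Day 5, 0.14, -0.34 and 0.30 on Day 10, and 0.96, 0.81 and 0.72 on Day 28. Day 10 overlapped with Day 5 alone, Day 28 lay above both of them, and Day 2 and Day 28 overlapped. The means were 0.88 ± 0.02, 0.49 ± 0.20, 0.03 ± 0.33 and 0.83 ± 0.12 (SD, n = 3), and the F test gave adjusted p = 0.0207. Hspa8 fell by 0.85 from Day 2 to Day 10 (SE 0.17, adjusted p = 0.0164) and rose by 0.80 from Day 10 to Day 28 (a fold of 1.74, adjusted p = 0.0437). Day 28 minus Day 2 was -0.05 (95% interval -0.41 to 0.31, adjusted p = 0.917). Neither step through Day 5 passed: -0.39 from Day 2 to Day 5 (adjusted p = 0.452) and -0.46 from Day 5 to Day 10 (adjusted p = 0.42).

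The calls of Hspa8 lay near the threshold. The F test missed it without Day 2 replicate 2 or 3, Day 10 replicate 2, or Day 28 replicate 1 or 2 (adjusted p = 0.0511 to 0.0556), and the fall to Day 10 missed it without Day 2 replicate 2 (-0.84, adjusted p = 0.0709), Day 2 replicate 3 (-0.86, adjusted p = 0.0607) or Day 10 replicate 2 (-0.66, adjusted p = 0.0541). The rise to Day 28 was lost without any 1 of the Day 2 or Day 28 arrays, Day 5 replicate 3, or Day 10 replicate 1 or 2, with adjusted p = 0.0596 to 0.205 and differences of 0.61 to 0.85. Without Day 10 replicate 3, the array that stood apart, both steps passed, at -0.98 (adjusted p = 0.00717) and 0.93 (adjusted p = 0.018). With the replicate number as a block the F test gave adjusted p = 0.0517 and the rise adjusted p = 0.0904.

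Of 9 measured cell division genes 1 fell from Day 2 to Day 10, where 1.06% of all rows did: Mki67, by 1.37 (limma adjusted p = 0.0367). None of the 9 passed limma's F test. For Day 10 minus Day 2, 8 of these 9 genes were below 0, with a median of -1.15 and Aurka above 0 at 0.09. Their mean ran from -0.79 to -0.38 on the Day 2 arrays, -1.63 to -1.07 on Day 5, -2.58 to -1.08 on Day 10 and -1.31 to -1.24 on Day 28. From Day 10 to Day 28 all 9 genes were above 0, with a median of 0.33, and none passed in limma. For Day 28 minus Day 2, 8 of 9 were below 0, with a median of -0.73, and again none passed. The part of cell division in the course of Hspa8 was not tested. The rows most like Hspa8 over the 12 arrays were Anxa8, an annexin (r = 0.914), Eml2 (0.905) and Paip1, a partner of the poly(A)-binding protein (0.889). Their F tests gave adjusted p = 0.0754, 0.0891 and 0.182.

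**Figure D3:**
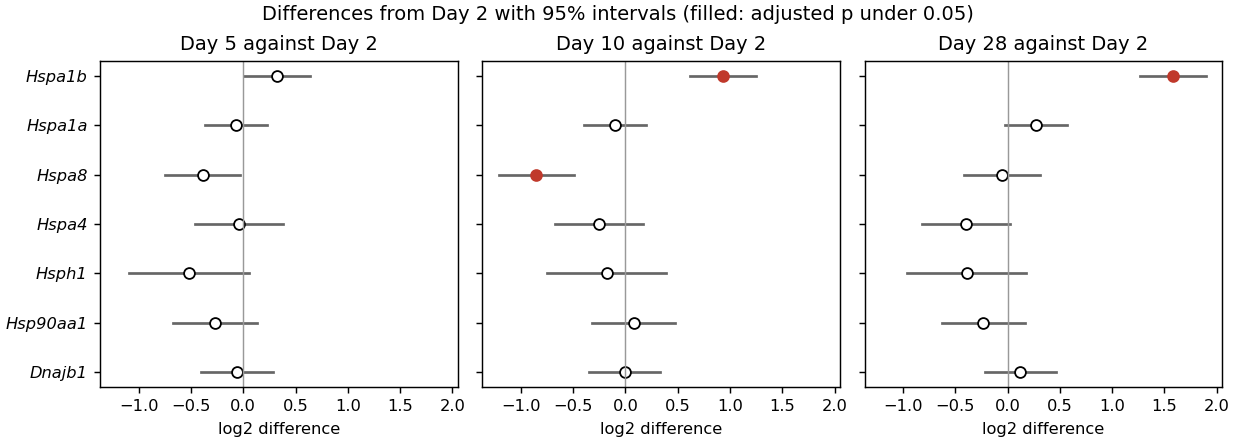
Log2 difference from Day 2 (horizontal axis) for the 7 genes on Day 5, Day 10 and Day 28, with 95% intervals of the limma fit, filled where the adjusted p is under 0.05. Filled points are Hspa1b on Day 10 and Day 28 and Hspa8 on Day 10.

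Hspa4 and Hsph1, of the HSP110 type that recharges HSP70, passed in no comparison. Hspa4 had log2 ratios of -0.59, -0.67 and -0.78 on Day 2, -0.67, -0.27 and -1.23 on Day 5, -0.97, -0.87 and -0.95 on Day 10, and -1.22, -1.11 and -0.92 on Day 28. Day 10 and Day 28 lay below Day 2, and 18.9% and 28.6% of all rows did not overlap in these comparisons. The 3 Day 5 arrays of Hspa4 spread across Day 2 and the later days. Day 28 minus Day 2 was -0.40 (95% interval -0.82 to 0.02, adjusted p = 0.305), and the F test gave adjusted p = 0.502. Hsph1, which encodes HSP105, read -0.03, -0.11 and -0.29 on Day 2, -1.04, -0.51 and -0.43 on Day 5, -0.78, -0.61 and 0.42 on Day 10, and -0.33, -0.65 and -0.62 on Day 28. Day 5 and Day 28 lay below Day 2, and 15.1% and 28.6% of all rows did not overlap in these comparisons. Day 10 replicate 3 of Hsph1 stood above every other array. The F test gave adjusted p = 0.574, or 0.164 without Day 10 replicate 3.

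Hsp90aa1, the stress-inducible HSP90, was far below the reference on every array and did not differ between days beyond the spread. Its log2 ratios were -1.63, -1.28 and -1.93 on Day 2, -2.13, -1.89 and -1.63 on Day 5, -1.68, -1.36 and -1.57 on Day 10, and -2.03, -1.84 and -1.67 on Day 28. Each day overlapped with each other day in the span of its arrays. The mean over the 12 arrays, -1.72, is 3.29-fold below the reference, and the F test gave adjusted p = 0.517. Day 28 minus Day 2 was -0.23 (95% interval -0.63 to 0.16).

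Dnajb1, the J protein that serves the inducible HSP70, had the smallest differences between day means of the 7. It read -0.30, -0.41 and -0.72 on Day 2, -0.81, -0.46 and -0.34 on Day 5, -0.48, -0.51 and -0.46 on Day 10, and -0.35, -0.53 and -0.19 on Day 28. All days overlapped. The largest difference between day means was 0.18, the F test gave adjusted p = 0.872, and Day 28 minus Day 2 was 0.12 (95% interval -0.22 to 0.46). Intervals of this width leave room for changes in Dnajb1, Hsp90aa1, Hspa4 and Hsph1, so these 4 genes are not shown to be unchanged.

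Across the 7 genes, 2 passed the F test, Hspa1b and Hspa8, where 5.32% of all 17504 rows did. Rows called with the highest mean on Day 28, as Hspa1b was, made up 2.75% of all rows, and rows called with the lowest on Day 10, as Hspa8 was, 0.577%. For Day 10 against Day 2, 2 of 7 passed against 2.59% of rows: 1 higher (1.53% of rows) and 1 lower (1.06%). For Day 28 against Day 2, Hspa1b was the 1 call, against 5.69% of rows in either direction, 3.68% higher and 2.01% lower. For Day 28 against Day 5 it was again the 1 call, against 4.71% of rows, 2.80% higher and 1.91% lower. For Day 28 against Day 10 the 1 call was Hspa8, against 0.840% of rows, 0.708% higher and 0.131% lower.

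Consecutive early days gave no call among the 7 in limma. The background was 0.337% of rows for Day 5 against Day 2 (0.200% higher, 0.137% lower) and 0.149% for Day 10 against Day 5 (0.120% higher, 0.0286% lower). At an unadjusted p under 0.05, Hspa1b and Hspa8 passed in both steps, as did 1773 of all 17504 rows in the first and 1573 in the second. The groups of 3 arrays did not overlap for 4 of the 7 genes between Day 28 and Day 2 (Hspa1a, Hspa1b, Hspa4 and Hsph1), against 28.6% of rows. They did not for 3 between Day 10 and Day 2 (Hspa1b, Hspa8 and Hspa4), against 18.9%. Hspa1a, Hspa1b and Hspa8 were apart between Day 28 and Day 10, against 18.2%, and between Day 28 and Day 5, against 25.3%. Hspa1b, Hspa8 and Hsph1 were apart between Day 5 and Day 2, against 15.1%, and Hspa1b alone between Day 10 and Day 5, against 12.8%. The median Day 28 minus Day 2 difference of the 7 genes was -0.05, with 3 above 0, and that of all rows was -0.01.

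The members did not move as a unit. Pairwise Pearson r over the 12 arrays, given as a description, ran from -0.67 (Hspa1b with Hspa4) to 0.55 (Hspa1a with Hspa8), and was 0.54 for Hspa1a with Hspa1b and -0.02 for Hspa1b with Hspa8. Against the reference, Hspa1b was above 0 on all 12 arrays and Hspa8 on 11. Hspa1a, Hspa4, Hsp90aa1 and Dnajb1 were below 0 on all 12, and Hsph1 was above 0 on 1.

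Partners of these chaperones were read from lists of the folding systems. Counts on these lists are read against the shares of all rows called: 5.69% for Day 28 against Day 2 (3.68% higher, 2.01% lower) and 4.71% for Day 28 against Day 5 (2.80% higher, 1.91% lower), so that 1 call in a list of about 12 genes is near the background. Among J proteins 12 of 14 listed genes were measured, and 1 rose from Day 5 to Day 28, Dnajb5, by 1.00 (SE 0.23, adjusted p = 0.0246). Of 12 other HSP70 partners 1 fell from Day 2 to Day 28, Hspa4l, another HSP110 gene, by 0.68 (adjusted p = 0.0444, and 0.011 to 0.176 over the alternatives). It also fell by 0.79 from Day 2 to Day 10 (adjusted p = 0.0355, and 0.00548 to 0.277 over the alternatives), where 1.06% of all rows fell. After quantile normalization that difference of Hspa4l was -0.38. The Day 28 minus Day 2 median was 0.19 for the J proteins, with 8 of 12 above 0, and -0.06 for the HSP70 partners, with 4 of 12 above 0.

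Of 13 HSP90 cochaperones 1 rose from Day 2 to Day 28, Tomm34, by 0.74 (adjusted p = 0.047, and 0.00352 to 0.169 over the alternatives), and the list median was 0.15. Ptges3, the p23 cochaperone, rose by 0.65 from Day 5 to Day 28 (adjusted p = 0.0244). Its day means were -0.04, -0.52, -0.41 and 0.14, with a mid-course low. Among 7 other small heat shock proteins Hspb2 rose, by 0.62 from Day 2 to Day 28 (SE 0.13, adjusted p = 0.0118) and by 0.71 from Day 5 (adjusted p = 0.0065). The second of these calls held in all 24 alternatives. Cryab, the small heat shock protein alpha-B-crystallin, stood at 2.33 on Day 2 and 3.20 on Day 28 (difference 0.87, adjusted p = 0.0637). Of 4 other heat shock factors and HSF1-binding proteins none passed in limma in any of the 6 comparisons, and Hsf4 had the largest Day 28 minus Day 2 difference, 0.58 (adjusted p = 0.102).

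**Figure D4:**
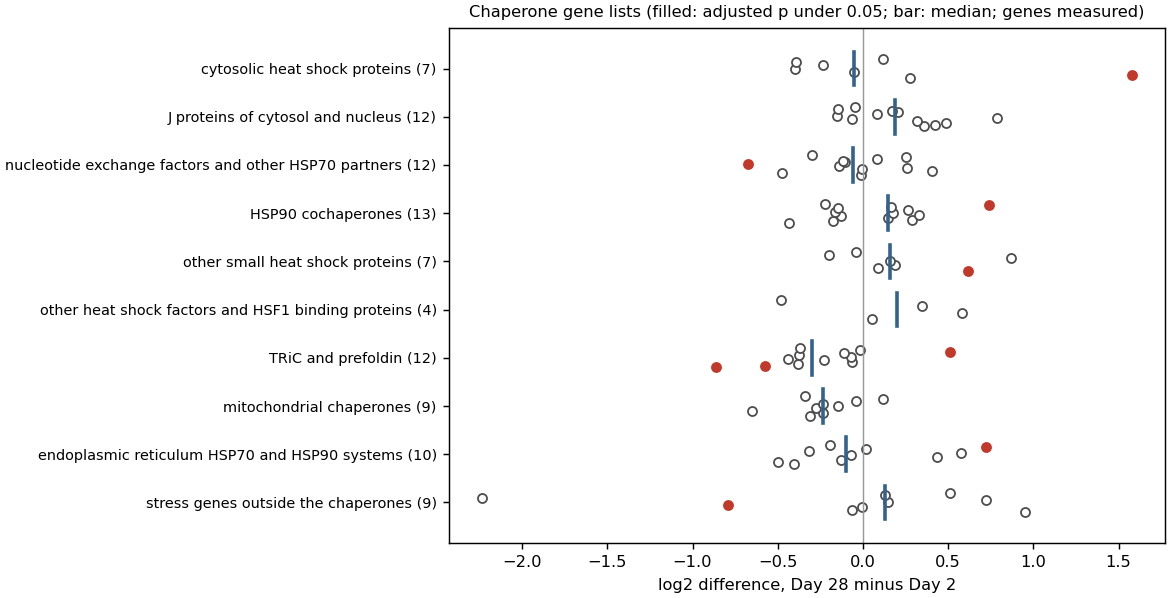
Log2 difference between Day 28 and Day 2 (horizontal axis) for each measured gene of the 7 heat shock proteins and of 9 lists, filled where the adjusted p is under 0.05, with a bar at each list's median. Hspa1b lies furthest right at 1.58, and 11 of 12 TRiC and prefoldin genes lie left of 0.

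TRiC is the ring-shaped chaperonin that folds actin and tubulin, and prefoldin hands it clients. Of 12 measured TRiC and prefoldin genes 2 fell from Day 2 to Day 28, where 2.01% of all rows did, Tcp1 by 0.86 (SE 0.14, adjusted p = 0.00253) and Cct2 by 0.58 (adjusted p = 0.0456). Pfdn5, a prefoldin subunit, rose by 0.51 (adjusted p = 0.0453). In all 11 of 12 were below 0, with a median of -0.30 against -0.01 for all rows. From Day 5 to Day 28, 4 fell, where 1.91% of all rows did: Cct6a by 0.80, Cct2 by 0.66, Tcp1 by 0.63 and Cct3 by 0.57 (adjusted p = 0.0208, 0.0255, 0.0224 and 0.0174). The fall of Tcp1 from Day 2 to Day 28 held in all 24 alternatives, that of Cct2 in 10 of them and the rise of Pfdn5 in 13.

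Of 9 mitochondrial chaperones none passed in limma in any of the 6 comparisons, and Hspa9, the mitochondrial HSP70, differed by -0.65 between Day 28 and Day 2 (adjusted p = 0.383). Like TRiC and prefoldin, most lay lower on Day 28 than on Day 2: 8 of 9 were below 0, with a median of -0.24. Among 10 genes of the HSP70 and HSP90 systems of the endoplasmic reticulum, 2 rose from Day 5 to Day 28, where 2.80% of all rows did, and 1 from Day 2 to Day 28, where 3.68% did. The list as a whole did not rise from Day 2: the Day 28 minus Day 2 median was -0.10, with 4 of 10 above 0. From Day 5 to Day 28 the median was 0.18, with 6 of 10 above 0. Sil1, a nucleotide exchange factor, rose by 0.72 from Day 2 to Day 28 (adjusted p = 0.0457, kept in 14 of 24 alternatives, and 0.0849 with the replicate block) and by 1.04 from Day 5 (SE 0.19, adjusted p = 0.00737). Dnajb9 rose by 0.57 from Day 5 to Day 28 (adjusted p = 0.0469, kept in 11 of 24 alternatives). Of 9 stress genes outside the chaperones 1 fell from Day 2 to Day 28, Atf4, by 0.79 (adjusted p = 0.0398, kept in 15 of 24 alternatives), and Trib3, a target of ATF4, differed by -2.24 (SE 0.63, adjusted p = 0.0571). The list did not fall as a whole, with 5 of 9 above 0 and a median of 0.13 for Day 28 minus Day 2.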

How the data were processed

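The deposited table holds 1 log ratio per spot and array from 2-colour arrays, taken here as log2. R 2.13.0 is credited to the submitters' processing notes. How the authors corrected background, normalized or filtered, and which way the ratio runs, is not given in the sources used here. Column medians lay within 0.0132 of 0. Spot brightness was not analysed here.

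Rows were named from the platform annotation, with symbols updated through a RefSeq gene table of GRCm38.p6: 14010 of 17664 rows had 1 gene, 13 several and 3641 none, and 13908 matched. The 170 spots of 10 genes printed 17 times were averaged, which left 17504 rows. Arrays were centred on their medians, and limma 3.58.1 (R 4.3.3, lmFit and eBayes) fitted 1 mean per day to all 12 arrays, with Benjamini-Hochberg adjustment over all rows and a threshold of 0.05. "Rose" and "fell" mean past it. The limma code was run on simulated data with normal noise drawn independently for each value. That run cannot show the error rate where arrays deviate together. Precision is limited by the number of arrays, 3 per day.

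The named genes were all members, from each chaperone and stress list the genes past the threshold and the one with the largest Day 28 minus Day 2 difference, and the 3 rows most like each member called by the F test. Marker genes of cell types and Hspa1l were named outside this rule, after their values were seen. The members and lists were chosen with earlier results of these data known. Replicate numbers did not pair the arrays (given with the alternatives).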

Additional observations from a re-analysis of the deposited data

How the results depend on the processing

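The 24 alternatives changed normalization, weights, variance prior, rows, spots or arrays. The 3 calls of Hspa1b (Day 10 and Day 28 against Day 2, Day 28 against Day 5) kept their direction and side of the threshold in each. No call of a member or of a gene on the chaperone and stress lists reversed. Calls of marker genes, such as Ctsk and Mki67, were not put through the alternatives. Counts of members moved only through Hspa8, except that array weights gave 2 calls for Day 28 against Day 10, Hspa1b and Hspa8. That comparison had 0 calls, in place of 1, after quantile normalization, with equal spread, with the replicate block and with only the arrays compared, and 0 to 1 with 1 array left out in turn. The F test called 1 member with the replicate block, in place of 2, and 1 to 2 with 1 array left out. Day 10 against Day 2 had 1 call with only the arrays compared and 1 to 2 with 1 array left out. The cause was not tested. Of the calls of listed partner genes, Hspb2 and Sil1 (Day 28 against Day 5) and Tcp1 (Day 28 against Day 2) held in all 24 alternatives, and the others in 10 to 21 of them. Same-numbered arrays deviated together in 2 of 18 pairs at r over 0.1 (range -0.27 to 0.20), and 5 of 12 arrays correlated best with their own number. Pairs with different numbers reached further. Day 5 replicate 2 deviated with Day 10 replicate 3 at r = 0.39 and against Day 10 replicate 1 at r = -0.33. Over all rows, the count of calls was 931 by the F test (515 to 1764 over the alternatives), 59 (20 to 231) for Day 5 against Day 2, 26 (0 to 83) for Day 10 against Day 5, 147 (65 to 420) for Day 28 against Day 10, 454 (148 to 963) for Day 10 against Day 2, 824 (404 to 1161) for Day 28 against Day 5 and 996 (529 to 1704) for Day 28 against Day 2. Among the 37 member differences not past the threshold, 15 of the alternatives turned the sign of at least 1, the largest of them 0.34. With no intensities, signal over background was not analysed here.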
